A study of Mus musculus with 10 samples.

Results

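Intergenic chromatin far from any annotated gene start was examined in mouse neural stem and progenitor cells (NSPCs). The regions described here are the rows of the deposited CUT&Tag count table that the authors annotated as distal intergenic and placed more than 50 kb from the transcription start site (TSS) of their assigned gene. The rule selected 3801 of 69418 regions, and another 15632 distal intergenic regions lay within 50 kb. The study compared NSPCs from brain labelled Mina53-KO with wild-type (WT) NSPCs, both listed as untreated. CUT&Tag covered 2 KO and 2 WT libraries, and poly(A) RNA sequencing covered 3 KO and 3 WT libraries. Mina53 is an older name of Riox2, a member of the JmjC family of ribosomal oxygenases, and the series title gives it a demethylase activity on an arginine of histone H4.

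In CUT&Tag a transposase tethered to an antibody cuts DNA beside the chromatin feature that the antibody binds. Intergenic chromatin holds distal enhancers, insulators and repeat-derived sequence, and long stretches without coding genes, called gene deserts, often flank developmental regulator genes in mammals. A region so far from a TSS cannot be tied to a target by distance alone, and the assigned gene is only the one the authors' annotation gave. The labels name no antibody, spike-in, input, brain region, animal age, knockout method or allele, and they do not say that libraries of a genotype came from separate animals or cultures. The p-values therefore measure only the spread between these libraries, which may be technical, and a gain or loss of signal shared by all regions cannot be measured.

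Reads in regions numbered 4038765 and 3369232 in the KO libraries and 3125267 and 2913959 in the WT libraries, which was 5.61 to 6.10% of the library totals. Signal is given as counts per 1000000 reads in regions (CPM), after TMM scaling between libraries, unless stated otherwise. Differences are given as log2 fold change, KO over WT. RNA libraries held 19923001 to 25939372 counts. Riox2 RNA averaged 3.58 ± 0.279 CPM in KO and 18.5 ± 1.39 CPM in WT cells (SD, n = 3 each). Its log2 fold change was -2.37 (SE 0.15), with an edgeR adjusted p of 0.000324. All 11 neural stem and radial glia markers passed the count filter, with a summed level of 7660 to 8646 CPM in KO and 7174 to 7461 CPM in WT libraries. Oligodendrocyte lineage markers summed to 2138 to 3356 CPM in KO and 2191 to 3517 CPM in WT libraries. Astrocyte markers summed to 912 to 1134 CPM in KO and 1025 to 1331 CPM in WT libraries. Neuron markers summed to 674 to 943 CPM in KO and 529 to 733 CPM in WT libraries. A sum can be carried by a few abundant genes, so these sums do not rank the cell types. Per kb of gene length, the median marker had 50.36 CPM for stem and radial glia and 50.53 CPM for astrocytes. It had 1.496 CPM for the oligodendrocyte lineage and 1.059 CPM for neurons. The 4 microglia markers summed to at most 0.350 CPM in KO and 0.576 CPM in WT libraries, and the 4 erythroid markers to at most 0.0416 and 0.0422 CPM, with 3 of them at 0 in every library.

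The far regions were narrow and held few reads. Their width ran from 200 to 1671 bp with a median of 269 bp, against a median of 287 bp in the other 65617 regions, and 959 of them were within 1 bp of the shortest width. The median region held 34 and 28 reads in the KO libraries and 25 and 22 reads in the WT libraries. On the depth-scaled scale these medians were 8.29 and 8.30 CPM in KO and 8.09 and 7.61 CPM in WT libraries, so the genotypes lay close together. Intergenic regions within 50 kb had medians of 10.2 and 10.4 CPM in KO and 10.0 and 10.0 CPM in WT libraries. The far regions were lower than the near ones in 4 of 4 libraries, with a ratio of medians of 0.794 ± 0.0237 (SD over 4 libraries). An exact two-sided sign-flip test over the libraries gave p = 0.125, the smallest that 4 libraries allow.

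**Figure D1:**
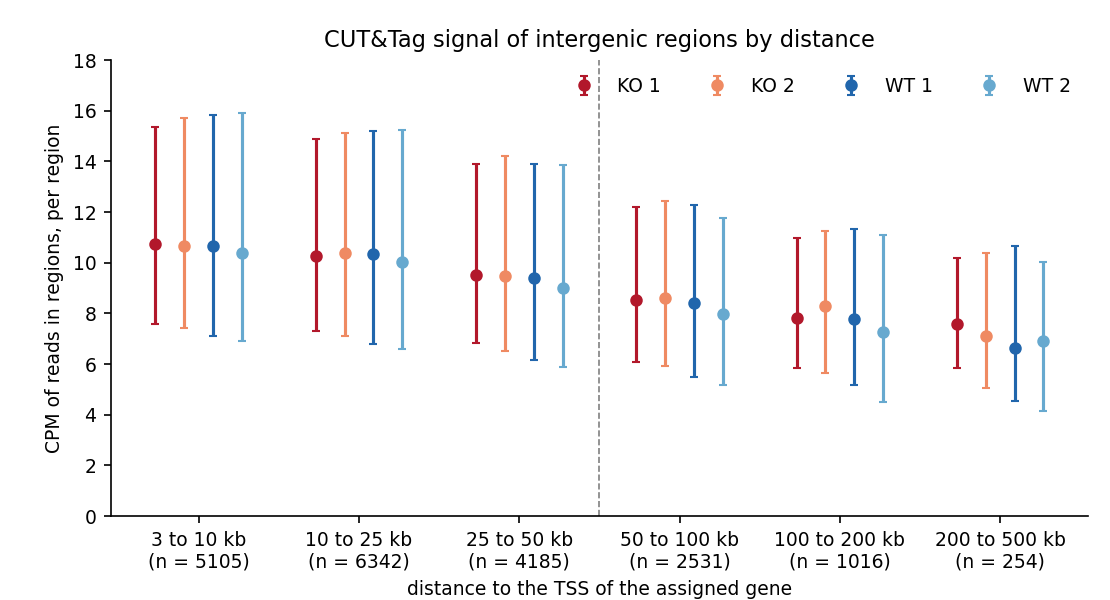
Median CPM per region (points) with the quartiles (bars) for 6 classes of distance to the TSS of the assigned gene, in 2 KO (red, orange) and 2 WT (dark and light blue) libraries; the dashed line marks 50 kb. The KO 1 median is 10.7 CPM at 3 to 10 kb and 7.56 CPM at 200 to 500 kb, and every library has its lowest medians in the 2 farthest classes.

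The lower signal was graded with distance rather than stepped at 50 kb. In the KO libraries the median was 10.7 and 10.7 CPM for intergenic regions 3 to 10 kb from a TSS, and in the WT libraries 10.7 and 10.4 CPM. At 50 to 100 kb, with 2531 regions, it was 8.54 and 8.60 CPM in KO and 8.41 and 7.96 CPM in WT libraries. At 200 to 500 kb, with 254 regions, it was 7.56 and 7.11 CPM in KO and 6.63 and 6.92 CPM in WT libraries. No region lay beyond 500 kb, the farthest being at 466737 bp. At the 50 kb limit itself, the 3 regions just inside, at 50005 to 50012 bp, had means of 7.20, 8.76 and 9.24 CPM in KO and 5.49, 5.75 and 8.88 CPM in WT cells. The 3 just outside, at distances of 49997, 49996 and -49990 bp, had 4.99, 14.4 and 4.88 CPM in KO and 4.02, 8.25 and 7.11 CPM in WT cells. Within the far regions, the Spearman correlation of CPM across regions was 0.616 to 0.688 with width and -0.0979 to -0.0816 with distance in the 4 libraries. This describes 3801 regions that share their libraries. CPM was not divided by width, so wider regions hold more reads by construction and width cannot be ranked against distance. Per kb of width, the median of the mean CPM was 28.7 for far regions and 34.5 for intergenic regions within 50 kb.

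No far region passed the test between genotypes. With edgeR's quasi-likelihood test over all 69209 regions that passed the count filter and Benjamini-Hochberg adjustment, 0 of 3766 tested far regions had an adjusted p under 0.05, and the smallest was 0.0740; the background over all regions was 5 calls, or 0.00722%. The 35 far regions that failed the count filter were not tested. At an unadjusted p under 0.05 there were 142 far regions, or 3.77%, against 5.35% of all tested regions. Of these, 69 (1.83%) were higher in KO, beside 1.7% of all regions, and 73 (1.94%) were lower, beside 3.65%. DESeq2 and edgeR without robust dispersion each called 1 far region, the highest peak on chromosome 2 described below, as lower in KO. DESeq2 gave no adjusted p to 3653 of the 3801 far regions, so its count covers only the rest, and its unadjusted p was under 0.05 for 81. The authors' deposited table gives a q-value of 1 for every far region and a p-value under 0.05 for 82 of them, against 1622 of all regions.

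The precision of a single far region was low. The median SE of its log2 fold change was 0.47, with quartiles of 0.37 and 0.60, against a median of 0.38 over all tested regions. These errors cover the spread between libraries and counting, and reads without molecular identifiers are not independent molecules.

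Taken over all tested far regions, the fitted differences leaned to the KO side by a small amount. Their median log2 fold change was 0.094, with quartiles of -0.23 and 0.39, against 0.0065 over all tested regions. It was above 0 in 57.8% of far regions, where the background was 50.6%. Both KO libraries were above both WT libraries in 747 far regions (19.8%, beside 16.9% of all regions), and below in 521 (13.8%, beside 17.8%). The lean was not particular to far regions. Intergenic regions within 50 kb had a median of 0.038, with 54% above 0. In 18.8% of them both KO libraries were above both WT libraries, and in 15.6% below. By distance, the median was 0.030 at 3 to 10 kb, 0.13 at 100 to 200 kb and 0.096 at 200 to 500 kb. Promoter regions, part of all regions, had a median of -0.069. With scaling to library totals the medians were 0.17 for far regions and 0.083 for all regions, and the gap between them was 0.086, against 0.087 before. With 1 library left out, that gap ran from 0.043 without KO replicate 1 to 0.12 without WT replicate 1.

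The peak marks moved with that lean. The table marks each region with the libraries in which the authors called a peak, and the marks and the counts come from the same reads. KO-only marks were on 2297 far regions (60.4%), against 50.8% of the other regions, WT-only marks were on 691 (18.2%, against 19.3%), and marks in both genotypes were on 813 (21.4%, against 29.9%). The median log2 fold change of tested far regions was 0.31 with a KO-only mark, -0.49 with a WT-only mark and -0.083 with marks in both. In the other regions the 3 medians were 0.23, -0.43 and -0.11. By library, a mark was on 2136 and 1636 far regions in KO and on 887 and 957 in WT, in the same genotype order as the reads in regions. The part of peak calling in the lean was not tested.

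**Figure D2:**
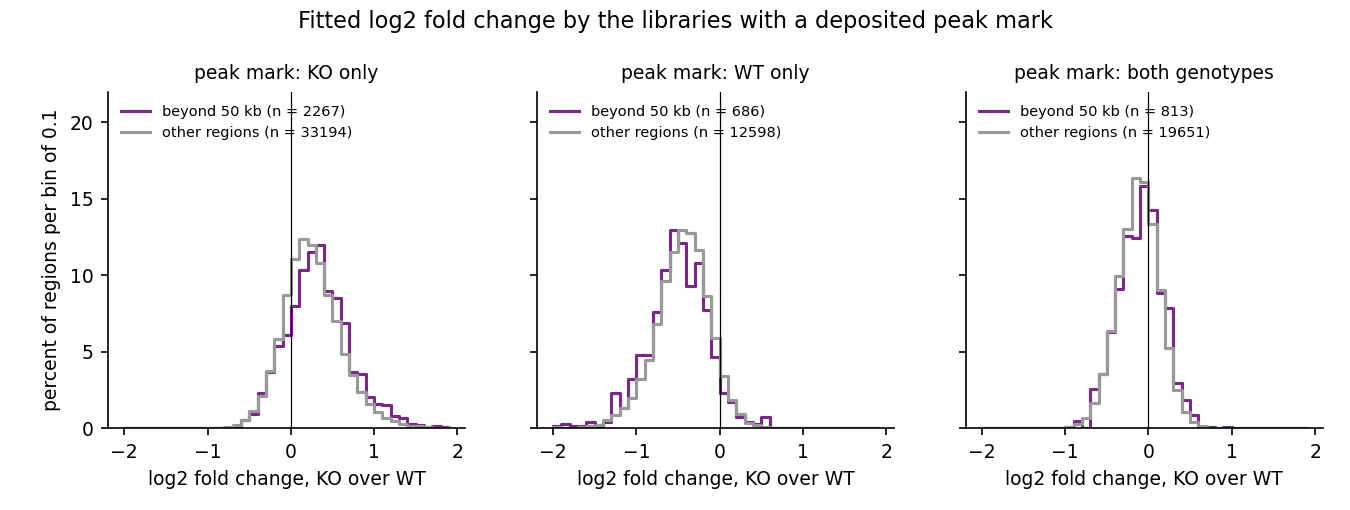
Distribution of the fitted log2 fold change, KO over WT, in bins of 0.1 for regions beyond 50 kb (purple) and all other tested regions (grey), by the genotype whose libraries carry the authors' peak mark; values past the axis limits are counted in the end bins. KO-only regions beyond 50 kb centre at 0.31, WT-only ones at -0.49 and those marked in both at -0.083, beside 0.23, -0.43 and -0.11 for the other regions.

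Most far peaks were called in a single library. There were 2717 such regions (71.5%, against 63.1% of the other regions), and only 234 (6.16%, against 10.3%) had a mark in all 4 libraries. The 1241 regions marked in KO 1 alone had medians of 8.54 CPM in KO 1 and 5.93 CPM in KO 2, and of 6.15 and 5.88 CPM in the WT libraries. The 344 marked in WT 2 alone had medians of 5.85 and 5.93 CPM in KO, and of 6.15 CPM in WT 1 and 9.69 CPM in WT 2. In each case the other library of the same genotype was as low as the libraries of the other genotype. In 2203 of the 2717 single-mark regions (81.1%) the marked library had the highest CPM. The share was close to this in the other regions, at 32592 of 41384 (78.8%).

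The 234 far regions marked in all 4 libraries were wider, with a median width of 564.5 bp. Their median signal was 22.4 and 23.3 CPM in KO and 23.9 and 23.0 CPM in WT libraries, so the genotypes overlapped. Both KO libraries lay below both WT libraries in 69 of them (29.5%) and above in 29 (12.4%). The 6731 other regions with 4 marks leaned the same way, with 35.5% below and 7.25% above. Their median log2 fold change was -0.13, against -0.087 for the far regions with 4 marks.

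The strongest far signal came from 3 neighbouring regions on chromosome 2. The highest was chr2:98496532-98497756, 1225 bp wide and 65157 bp from the TSS of the predicted gene Gm13806, with 20660 and 19536 reads in KO and 21913 and 19739 reads in WT libraries. In CPM that was 5039 and 5791 in KO and 7087 and 6830 in WT, with both KO libraries below both WT libraries and a log2 fold change of -0.36 (SE 0.081, edgeR adjusted p 0.0740). DESeq2 gave it an adjusted p of 4.69e-05 and edgeR without robust dispersion 0.000116, while the adjusted p of the other alternatives ran from 0.0659 without WT replicate 2 to 0.901 without KO replicate 1. Beside it, chr2:98492500-98493272 had 1616 and 1742 CPM in KO and 2154 and 2023 CPM in WT libraries, and a log2 fold change of -0.32 (edgeR adjusted p 0.478). The third, chr2:98495333-98495592, had 453 and 478 CPM in KO and 558 and 525 CPM in WT libraries. Exclusion lists of regions with very high signal in any library were not used here, and whether these 3 regions belong on one was not tested. Their values, and the chromosome 2, width and share values that hold them, carry that doubt.

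Below that trio the signal dropped steeply. The widest far region, chr16:30536248-30537918, had 318 and 311 CPM in KO and 309 and 337 CPM in WT libraries. The region chr14:125038941-125039361, the fifth by mean CPM, had 243 and 258 CPM in KO and 256 and 267 CPM in WT libraries. Neither separated the genotypes. The next widest, chr10:57981556-57983096 with 1541 bp and chr6:126411240-126412739 with 1500 bp, had log2 fold changes of -0.21 and -0.20 and adjusted p of 0.933 and 0.934 by edgeR, with all 4 peak marks. The 3 regions farthest from a TSS were all on chromosome 2 and weak. The farthest, chr2:133929291-133929490, assigned to the peroxisomal oxidase gene Hao1, had 33 and 19 reads in KO and 17 and 12 reads in WT libraries. The other two, chr2:46966901-46967159 and chr2:46967402-46967601, are near neighbours, and their log2 fold changes were 0.51 and -0.36, in opposite directions.

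Among the regions with the smallest p, those higher in KO held few reads. The first, chr16:75140246-75140480, had 46 and 48 reads in KO and 19 and 10 reads in WT libraries, a log2 fold change of 1.39 (SE 0.45, edgeR adjusted p 0.673). Next, chr12:104608545-104608930, assigned to Dicer1, the ribonuclease that matures microRNAs, had 46 and 64 reads in KO and 22 and 21 in WT libraries. The other three were chr16:73517494-73518182, chr18:62195761-62196185 and chr4:55774648-55775034, with log2 fold changes of 0.77, 0.96 and 1.26 and edgeR adjusted p of 0.773 to 0.792. In all 5 both KO libraries were above both WT libraries. They were chosen by p on these same libraries, so this separation adds no support.

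The regions with the smallest p that were lower in KO included both high and low signals. Besides the pair of chromosome 2 peaks above, chrY:258960-259516 had 44.4 and 37.6 CPM in KO and 74.4 and 54.3 CPM in WT libraries, a log2 fold change of -0.65 (SE 0.17, edgeR adjusted p 0.276). The region chr8:21035532-21035889 had 30 and 21 reads in KO and 59 and 37 reads in WT libraries, a log2 fold change of -1.23 (SE 0.38, edgeR adjusted p 0.602). The region chr13:47426946-47427380 had 44 and 41 reads in KO and 65 and 65 reads in WT libraries. The groups did not overlap in any of these, which the choice by p on the same libraries favours, and none passed the test.

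**Figure D3:**
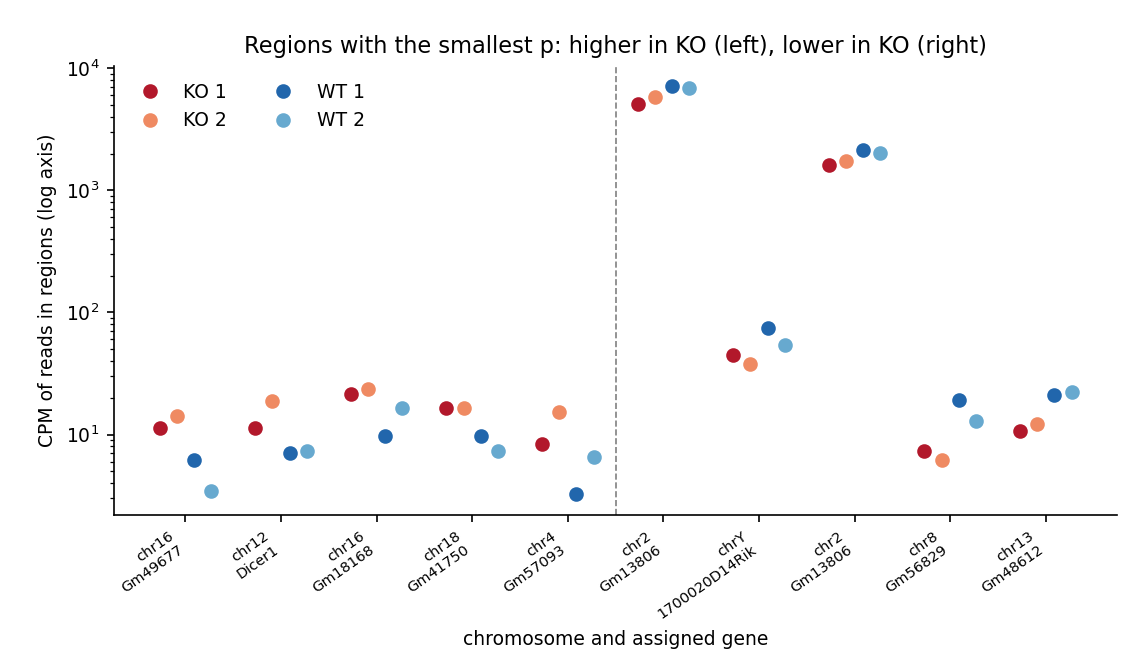
CPM in each of the 2 KO and 2 WT libraries (log axis) for the 5 far regions with the smallest p among those higher in KO (left of the dashed line) and the 5 among those lower in KO (right). The regions on the left lie between 3.23 and 23.4 CPM, and the highest region on the right, on chromosome 2, between 5039 and 7087 CPM.

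The share of all reads in regions that fell in the far regions was the same size in both genotypes. It was 4.63 and 4.65% in KO and 4.77 and 4.58% in WT libraries, with means of 4.64 ± 0.0152% in KO and 4.67 ± 0.129% in WT (SD, n = 2 each). An exact two-sided permutation test gave p = 1, where 2 libraries against 2 cannot go below 0.333. The chromosome 2 trio held 15.6 and 17.3% of the far reads in KO and 20.3 and 20.3% in WT libraries. Without the regions over 1000 reads in a library the share was 4.21 and 4.16% in KO and 4.09 and 3.91% in WT libraries, a difference in the other direction at the smallest p this design allows, 0.333. The direction of the share also turned with library totals as the denominator, beyond 100 kb, without the chromosome 2 trio and without WT replicate 1. Reads in mitochondrial regions, part of the denominator, were 3.60 and 3.67% in KO and 3.12 and 3.05% in WT libraries.

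By width, the widest class, which holds the highest chromosome 2 region, had the largest log2 ratio in size. The 24 regions over 1000 bp summed to 6597 and 7323 CPM in KO and 8774 and 8358 CPM in WT libraries, a log2 ratio of -0.30 that became -0.062 without the regions over 1000 reads in a library, the same size as in the narrowest class. The 1683 regions up to 250 bp wide summed to 11077 and 10973 CPM in KO and 10910 and 10213 CPM in WT libraries, a log2 ratio of 0.062. The 1742 regions above 250 and up to 500 bp gave 0.033, and the 352 above 500 and up to 1000 bp gave -0.071. In every width class the KO and WT libraries did not overlap, although the gap between them was small. Marks in all 4 libraries were on 0.238% of the narrowest class and on 75% of the widest.

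By distance, the sums followed the chromosome 2 trio. Regions at 50 to 100 kb, which include it, summed to 33792 and 34559 CPM in KO and 36573 and 35121 CPM in WT libraries, a log2 ratio of -0.069 that became 0.020 without the regions over 1000 reads. The 1016 regions at 100 to 200 kb gave 9556 and 9703 CPM in KO and 9432 and 9042 CPM in WT libraries, a log2 ratio of 0.060, and the 254 at 200 to 500 kb gave 0.068. Distance to an annotated TSS was not the same as distance to a promoter peak: the nearest region annotated as promoter was a median of 155 kb away from a far region and 37.1 kb from a nearer intergenic one. That nearest promoter region lay over 500 kb away for 298 far regions, which include the trio. They summed to 9575 and 10477 CPM in KO and 12226 and 11573 CPM in WT libraries, a log2 ratio of -0.25 that became 0.095 without the trio, and their median fitted log2 fold change was 0.17. The 1139 within 100 kb of a promoter region had a median of 0.042.

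The far regions were spread unevenly over chromosomes 1 to 19, X, Y and 2 scaffolds. Chromosome 1 held the most, 306, and chromosomes 2 and 4 held 297 and 296. As a share of a chromosome's own regions, among chromosomes 1 to 19 and X, chromosomes 16 and 18 were the highest, at 8.31 and 8.21%, and chromosomes 17 and 9 the lowest, at 3.48 and 3.61%. The X chromosome held 35 and the Y chromosome 2.

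Summed signal was higher in KO on 14 of 21 chromosomes, by little. Chromosome 12 had the largest log2 ratio among them, 0.089, with 2132 and 2197 CPM in KO and 2051 and 2017 CPM in WT libraries. Chromosome 2 summed to 10020 and 10899 CPM in KO and 12663 and 12091 CPM in WT libraries, a log2 ratio of -0.24. Without its 3 highest regions the ratio was 0.057, from 2911 and 2889 CPM in KO and 2863 and 2713 CPM in WT libraries. On the X chromosome the sums were 301 and 308 CPM in KO and 321 and 331 CPM in WT libraries, a log2 ratio of -0.10. The 2 Y regions summed to 65.6 and 53.4 CPM in KO and 106 and 74.7 CPM in WT libraries, a log2 ratio of -0.60, and the median over all 9 Y regions of the table was -0.27. On each of chromosomes 1 to 19 the median fitted log2 fold change of the far regions was positive, from 0.052 to 0.15, and on each it was above the median of all regions there.

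**Figure D4:**
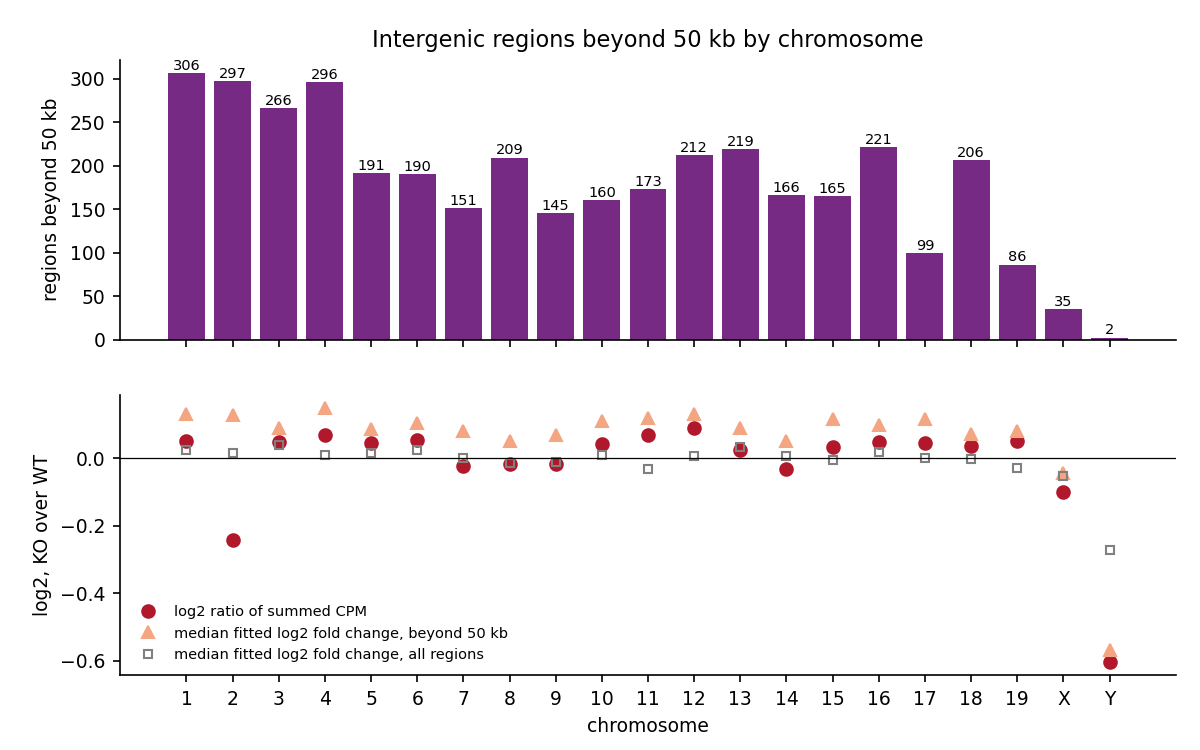
Number of regions beyond 50 kb on each chromosome (upper panel) and, below, the log2 ratio KO over WT of their summed CPM (circles), their median fitted log2 fold change (triangles) and that of all regions of the chromosome (squares). Circles lie between -0.031 and 0.089 on chromosomes 1 to 19 other than 2, at -0.24 on chromosome 2, at -0.10 on X and at -0.60 on Y.

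Of the far regions, 1549 (40.8%) fell in 214 clusters, called gene-desert clusters here. A cluster was a run of at least 5 far regions with no other region of the table between them and each within 200 kb of the next. The rule did not check for genes between the regions. In the cluster at chr1:35419563-35743068, far regions at distances of 82679 and -52450 bp lay on both sides of the TSS of Gm37068. Clusters held a median of 6 and at most 19 regions and spanned 10.7 to 731 kb. Chromosomes 1, 4 and 16 held the most, with 19, 18 and 17 clusters. Regions inside clusters had a median of 8.57 CPM in KO and 8.22 CPM in WT cells, and those outside a median of 7.68 CPM in KO and 7.49 CPM in WT cells.

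The largest cluster, with 19 regions over 202 kb at chr8:12054601-12256636, showed nearly equal signal in all libraries. It summed to 297 and 297 CPM in KO and 301 and 299 CPM in WT libraries. The next, with 18 regions at chr5:4302806-4755215, was assigned to Fzd1, a Wnt receptor gene, and Mterf1b, a mitochondrial transcription termination factor gene, and had 171 and 176 CPM in KO and 147 and 170 CPM in WT libraries. A run of 17 at chr8:90483143-90931926, assigned to the snoRNA gene Gm24212 and to Tox3, which encodes an HMG-box nuclear protein, had 141 and 148 CPM in KO and 149 and 146 CPM in WT libraries. The cluster of 16 at chr2:171266155-171741484 had 203 and 206 CPM in KO and 206 and 178 CPM in WT libraries. The longest, 15 regions over 731 kb at chr5:132682913-133414289, had 189 and 167 CPM in KO and 167 and 152 CPM in WT libraries.

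The log2 ratio of cluster sums had a median of 0.047 and ran from -0.38 to 0.65 over the 214 clusters, where the fitted log2 fold change of single tested far regions ran from -1.92 to 1.85. Both KO libraries were above both WT libraries in 58 clusters and below in 35. These are sums over several regions, so the shares given above for single regions are no background for them, and no test was made. The largest ratio was at chr19:19550528-19655005, where all 5 regions carried KO-only marks. It held 136 and 110 reads in KO and 76 and 50 reads in WT libraries. Second was chr16:75024396-75140480, with 205 and 210 reads in KO and 122 and 118 in WT libraries. It contains the region with the smallest p among those higher in KO, and 4 of its 5 regions had a log2 fold change above 0. The third, chr2:178192331-178380881, had a log2 ratio of 0.45. At the other end, chr1:35419563-35743068 had a log2 ratio of -0.38 with overlapping groups. The cluster at chr2:172469803-172615468, assigned in part to Tfap2c, a transcription factor of the AP-2 family, had 54.6 and 40.3 CPM in KO and 65.7 and 54.7 CPM in WT libraries. The one at chr13:73121849-73308768 had 54.1 and 51.3 CPM in KO and 68.9 and 64.7 CPM in WT libraries.

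**Figure D5:**
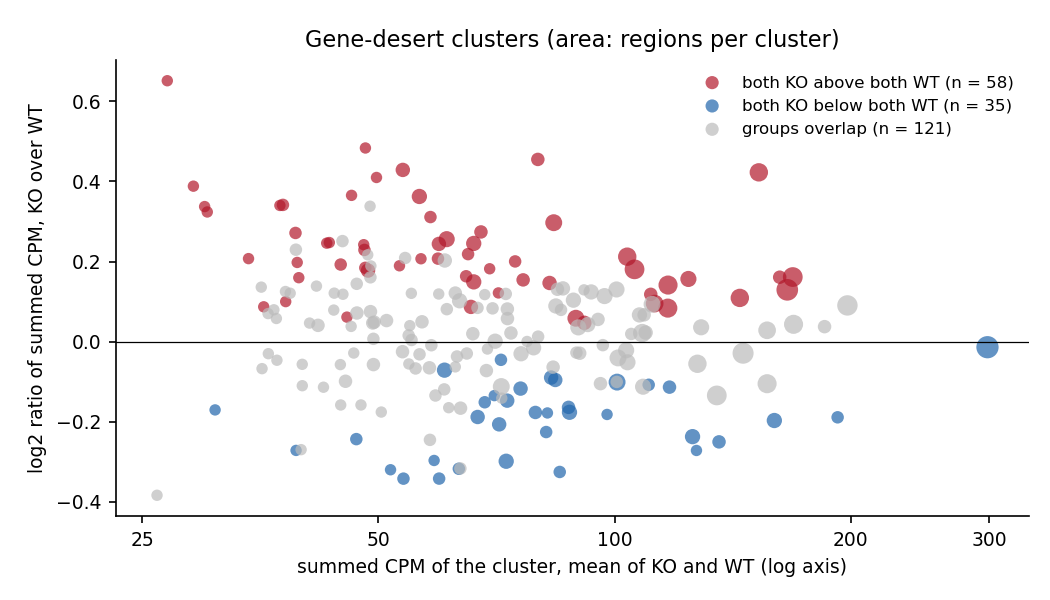
Log2 ratio KO over WT of the summed CPM of each of 214 gene-desert clusters against its mean summed CPM (log axis), with point area for the number of regions. Red clusters (58) have both KO libraries above both WT libraries, blue ones (35) both below, and grey ones overlap; the ratios run from -0.38 to 0.65 with a median of 0.047.

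The far regions were assigned to 1922 genes, of which 432 had a protein-coding biotype and 642 had no biotype match. Of these genes 1038 had a single far region and 134 had 5 or more. Genes with a predicted or clone name took 73.9% of far regions, against 38.3% of the other regions, and protein-coding genes took 21.5%, against 58.1%. Genes without a biotype match took 34.8% of far regions, against 20.5% of the other regions, and may include protein-coding ones. The gene with the most far regions was the lncRNA gene 1700028P15Rik with 13, followed by Gm24212 with 12, and Gm5513 and B020031H02Rik with 11 each. Tox3, Fzd1 and the microRNA gene Mir148a had 10 each. Rbfox1, a neuronal splicing factor, Gm12696 and Gm13982 had 9 each. Summed over its 10 regions, Mir148a had 72.9 and 76.2 CPM in KO and 79.6 and 96.5 CPM in WT libraries, with no overlap. Gm5513 had 95.6 and 94.9 CPM in KO and 78.3 and 78.6 CPM in WT libraries, the other way. Gm12696 and Gm13982 also had both KO libraries above both WT libraries. Such separation was not particular to these genes. Over all 1922 assigned genes, both KO libraries were above both WT libraries in 21.4% and below in 13.4%. Fzd1 and Tox3 overlapped between genotypes. In RNA, 3 of these 10 genes passed the count filter, and none passed the test: Fzd1 had a log2 fold change of 0.38 (edgeR adjusted p 0.126, DESeq2 adjusted p 0.0453), Tox3 of -0.17 and Rbfox1 of -0.98.

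RNA of the assigned genes gave a readout that the choice of regions did not use. Of the 1920 assigned genes in the RNA table, 381 (19.8%) passed the count filter, against 43.0% of genes assigned to other regions only. Of these 381, 29 (7.61%) had an edgeR adjusted p under 0.05, 12 of them higher and 17 lower in KO, where the background over all 15299 tested genes was 3.43%, 1.77% higher and 1.66% lower. The count depended on single libraries: it was 12 without KO replicate 1 (3.07%, beside 1.14% of all tested genes), 13 without KO replicate 2 (3.32%, beside 1.14%) and 11 without WT replicate 3 (2.82%, beside 0.888%). DESeq2 called 50, or 12.5% of those with an adjusted p, beside 5.53% of all genes, and beyond 100 kb 5 of 104 tested genes were called (4.81%). In bulk RNA, fewer cells of a type and less RNA per cell cannot be told apart.

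Of the 10 called genes with the most far regions, 5 were higher and 5 lower in KO. Gria1, a subunit of AMPA-type glutamate receptors with 7 far regions, had 57.2, 51.6 and 55.4 CPM of RNA in KO and 29.7, 25.5 and 26.0 CPM in WT libraries, a log2 fold change of 1.02 (SE 0.11, edgeR adjusted p 0.0034). Its far regions summed to 67.6 and 80.9 CPM in KO and 79.2 and 71.3 CPM in WT CUT&Tag libraries, which overlapped. Thbs2, a secreted matricellular protein with 3 far regions, had 32.4, 34.5 and 34.5 CPM of RNA in KO and 3.88, 3.45 and 5.13 CPM in WT libraries, a log2 fold change of 3.02 (SE 0.17, edgeR adjusted p 0.000293). Its far regions also overlapped, at 44.6 and 39.7 CPM in KO and 41.4 and 35.3 CPM in WT libraries. Bmper, a secreted regulator of BMP signalling, and Kcnk2, a potassium channel, rose by log2 1.11 and 1.60.

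In 3 of these 10 genes both KO libraries were below both WT libraries in summed far signal, with RNA higher in 1 and lower in the other two, and in 1, Gap43, both were above. Over all 29 called genes the sums were below in 9 (31.0%) and above in 4 (13.8%), beside 16.8% and 22.3% of the 381 assigned genes tested in RNA. Eya1, a transcriptional coactivator and phosphatase, had RNA lower by a log2 fold change of -1.18, and its 6 far regions summed to 41.0 and 46.8 CPM in KO and 51.7 and 54.0 CPM in WT libraries. Gata3, a zinc-finger transcription factor, had 0.247, 0.582 and 0.584 CPM of RNA in KO and 1.77, 1.19 and 1.66 CPM in WT libraries (log2 fold change -1.68, edgeR adjusted p 0.0495), and its 5 far regions summed to 111 and 119 CPM in KO and 140 and 138 CPM in WT libraries. Bmper RNA was higher in KO, and its 6 far regions summed to 95.4 and 99.0 CPM in KO and 121 and 101 CPM in WT libraries. The other called genes of this set were Rapgef5, an exchange factor for Rap GTPases (-1.54), the adhesion molecule Chl1 (-1.25), the growth cone protein Gap43 (0.94) and the transporter Abcc12 (-0.79), given as log2 fold changes of RNA.

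Of these 10 calls, those of Gria1, Bmper, Thbs2 and Kcnk2 were made under every alternative and with each library left out. The other six were lost without KO replicate 1 or without WT replicate 3, all but Chl1 without KO replicate 2, and Gata3, Rapgef5 and Gap43 without WT replicate 2. The Gata3 call was also lost without KO replicate 3 or WT replicate 1. Adjusted p of the lost calls ran from 0.0506 to 0.228. Over all 29 called genes, the summed far signal was above 0 in log2 ratio for 7 of the 12 genes with higher RNA and for 9 of the 17 with lower RNA in KO. The medians of that ratio were 0.10 and 0.050.

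Of 61 neural transcription factors, 6 (9.84%) had at least 1 far region, with 13 in all. Beside this, 3.36% of all genes in the RNA table and 6.99% of genes assigned to any region had a far region. Irx1, an Iroquois homeobox factor, had 5, which summed to 33.4 and 29.3 CPM in KO and 40.4 and 34.9 CPM in WT libraries. Tcf7l2, a Wnt pathway effector, had 4, and Dlx2, a homeobox factor of inhibitory neuron lineages, Meis2 and Sox5 had 1 each. In RNA, 1 of the 6 passed the test, where 3.43% of all tested genes did: Meis2, a homeobox factor named here after its value was seen, had 69.2, 59.9 and 63.8 CPM in KO and 31.7, 32.5 and 25.1 CPM in WT libraries (log2 fold change 1.11, edgeR adjusted p 0.00473). Its far region held 27 and 30 reads in KO and 18 and 13 reads in WT libraries. Dlx2 RNA had a log2 fold change of 1.46 and an edgeR adjusted p of 0.0755, which was 0.029 by DESeq2 and 0.0267 without the count filter. The median RNA log2 fold change of the 6 was -0.23, against 0.0061 over all tested genes.

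Of 73 genes for neuronal adhesion and guidance, 15 (20.5%) had far regions, 24 in all, beside the same 3.36% and 6.99%. Sema6d, a transmembrane semaphorin, had 4, which summed to 30.2 and 30.8 CPM in KO and 40.8 and 37.0 CPM in WT libraries. Cdh2, which encodes N-cadherin, and Cntnap2, a neurexin-family protein, had 3 each, and Opcml, a GPI-anchored adhesion protein, had 2. The far regions of Cntnap2 leaned the other way, at 33.4 and 25.8 CPM in KO and 20.4 and 25.6 CPM in WT libraries. Over the list, 14 of the 24 far regions had a log2 fold change above 0, beside 50.6% of all tested regions. Their median was 0.18. Of the 14 genes tested in RNA, 1 rose and 1 fell, beside 1.77% and 1.66% of all tested genes. Both were named after their values were seen. Cdh13, an atypical cadherin, rose by log2 0.80 (edgeR adjusted p 0.00869) and Tenm4, a teneurin, fell by 0.95 (edgeR adjusted p 0.0195), each with 1 far region, and both calls were lost without KO replicate 1, KO replicate 2 or WT replicate 3. Cdh2 RNA had a log2 fold change of 0.46 with an edgeR adjusted p of 0.0534, which DESeq2 put at 0.00418. Opcml RNA had -0.80 and 0.0939, and passed by DESeq2 at 0.0119, without the count filter at 0.03 and without KO replicate 3 or WT replicate 1. No far region was assigned to an olfactory receptor, vomeronasal receptor or defensin gene. These families took 97 (0.148%), 27 (0.0411%) and 15 (0.0229%) of the other regions. The gene assignment and the 50 kb limit rest on the same TSS distances, so nothing is concluded from this absence.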

How the data were processed

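Per the labels, a commercial CUT&Tag kit and a stranded poly(A) RNA kit were used. HISAT2, StringTie and GRCm39 are listed in the submitters' processing notes. For the peak caller, its threshold, the counting tool and its strand setting, the sources used here give nothing. The authors' deposited CUT&Tag table holds raw counts per region merged over 4 libraries, peak marks, annotation and distance to the TSS. Its deposited RPM equal the count plus 1 per 1000000 of a library total, from which the totals were taken, and its deposited log2 fold changes, p-values and q-values are the authors'. The deposited RNA table holds expected counts, rounded here to whole numbers.

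Both tables were tested whole with edgeR 4.0.16 in R 4.3.3 (TMM, filterByExpr with a minimum count of 10, robust glmQLFit, glmQLFTest, Benjamini-Hochberg, threshold 0.05). The SE is the log2 fold change divided by the square root of F. CUT&Tag CPM are per 1000000 reads in tested regions, with the read number of each library scaled by its TMM factor. The fit was tested on simulated data with known changes in features other than those of lowest signal. In CUT&Tag it called 0% of 1.5-fold, 7.46% of 2-fold and 83.3% of 4-fold changes. In RNA it called 10.4, 44.8 and 78.8% of them. The CUT&Tag rates were not simulated for far regions alone. The median SE of far regions was 0.47, against 0.38 over all tested regions, so these rates may be too high for them. The labels do not say whether shared replicate numbers pair the libraries, and the main fits did not use them. Deviations of same-numbered libraries correlated at 0.0155 in CUT&Tag, with 2 pairs, and at 0.46, -0.37 and 0.27 in RNA. So few pairs cannot exclude a pairing.

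Named were the 5 regions of smallest p per direction, the 5 with the highest CPM, the 3 widest, the 3 farthest, the 5 largest clusters and the 3 with the largest and the 3 with the smallest ratio. Also named were the 10 genes with the most far regions, up to 4 per list and up to 10 called in RNA-seq. A listed gene that this rule names is not reported here. Members and lists were chosen with earlier results of these data known. Biotypes came from RefSeq by gene identifier, and 642 of the assigned genes had no match. Alternatives were RLE and library-total scaling, DESeq2 1.42.0, other filters, the replicate block, no robust dispersion, other distances and cluster rules, and each library left out. No region sequence is printed, since no GRCm39 genome was used here.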

Additional observations from a re-analysis of the deposited data

How the results depend on the processing

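The count of far regions called, 0, became 1 with DESeq2 and 1 without robust dispersion, and ran from 0 to 0 with 1 library left out. The labels do not say whether the replicate numbers pair libraries. With the replicate number as a block, 0 far regions and 18 assigned genes were called, against 0 and 29 without the block. The calls of Gata3, Abcc12 and Tenm4 were lost with the block (edgeR adjusted p 0.134, 0.0598 and 0.0505). The share of reads in far regions, -0.0353 percentage points KO minus WT, was 0.0077 with library totals, 0.182 without regions over 1000 reads, 0.0699 beyond 100 kb and, chosen after seeing the data, 0.147 without the chromosome 2 trio. Also chosen after seeing the data, it was -0.00898 without mitochondrial regions and -0.279 over regions marked in both genotypes. It ran from -0.127 to 0.0563 with 1 library left out. Without regions over 1000 reads the log2 ratio was -0.011 for widths above 500 and up to 1000 bp, -0.062 over 1000 bp and 0.020 at 50 to 100 kb. With 1 library left out it ran from 0.015 to 0.11 up to 250 bp, from 0.016 to 0.051 up to 500 bp, from -0.10 to -0.041 up to 1000 bp, from -0.38 to -0.23 over 1000 bp, and from -0.098 to -0.039, 0.030 to 0.091 and 0.027 to 0.11 in the 3 distance classes, by rising distance. The number of chromosomes with more signal in KO ran from 10 to 16. Clusters numbered 196 with a gap of 100 kb, 230 with 500 kb and 33 with at least 10 regions. Assigned genes called in RNA-seq numbered 50 with DESeq2, 5 beyond 100 kb and 11 to 31 with 1 library left out. Reversed in sign were chr16:30536248-30537918 (0.036 with library totals, -0.097 to 0.028 with 1 library left out), chr14:125038941-125039361 (0.015 with library totals), chr10:57981556-57983096 (-0.39 to 0.0051 with 1 library left out), chr6:126411240-126412739 (-0.44 to 0.11 likewise) and Sema6d RNA (-0.047 to 0.083 likewise, with -0.0029 without WT replicate 1), none of them called. The cause of these changes was not tested, and the low counts per region limit the precision. A CUT&Tag group left with 1 library takes its spread from the other genotype.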

Other observations

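Some regions with many reads carried a peak mark in a single library. On 1 unplaced scaffold with 5 far regions, the region at 374 to 667 had 126 and 131 reads in KO and 148 and 117 reads in WT libraries, with a mark in KO 2 alone. On the same scaffold the region at 6311 to 6549 had 258 and 166 reads in KO and 196 and 132 reads in WT libraries, with a mark in KO 1 alone. Together the 5 regions summed to 449 and 457 CPM in KO and 565 and 473 CPM in WT libraries. The pair of far regions in a segment of chromosome 8 near defensin genes, chr8:21035121-21035336 and chr8:21035532-21035889, had log2 fold changes of -0.76 and -1.23, and both carried marks in WT libraries alone. The second Y region, chrY:12752615-12752968, had 87 and 53 reads in KO and 98 and 59 reads in WT libraries.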
